A study of Drosophila melanogaster with 3 samples.

Results

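The Hippo pathway growth control genes described here are 10 protein-coding genes of Drosophila melanogaster, namely hpo, sav, wts, mats, yki, sd, ex, Mer, ft and Diap1, out of 13945 protein-coding genes on 6 chromosome arms. They were listed by name for their place in the pathway. The data are chromatin immunoprecipitation with sequencing on whole embryos of mixed sex, aged 0 to 24 h, from a single transgenic line that carries a green fluorescent protein (GFP) fusion and is labelled CG18619-GFP. The immunoprecipitation used an antibody against GFP, and chromatin was sheared to 200 to 800 bp. Which protein carries GFP is unclear from the labels. The strain and antibody fields name CG18619 (REPTOR-BP), whereas a note and the description name its partner REPTOR, with GFP at the C terminus. The signal is therefore ascribed only to the tagged protein. Replicates 1, 2 and 4 form the only group, with no untagged, mutant or treated group among the samples used here, so no comparison between groups can be tested and the values below are descriptions. The labels do not say what drives the transgene, and a whole embryo mixes all of its tissues. The authors deposited 30000 regions per replicate, peaks and background together, and an optimal list of 5208 peaks that passed their irreproducible discovery rate. Read depth is unknown from these lists.

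The Hippo pathway restrains organ growth. At its core the Ste20-family kinase Hpo, with the scaffold Sav, activates the kinase Wts, whose activator is Mats. Wts phosphorylates the coactivator Yki and keeps it out of the nucleus. Nuclear Yki binds DNA through Sd, a TEAD-family factor, and raises genes of growth and survival such as Diap1. The membrane-linked proteins Ex and Mer and the giant cadherin Ft act upstream. REPTOR and REPTOR-BP are basic leucine zipper (bZIP) factors of the response to low TORC1 activity, another growth control route.

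The DNA under the strongest summit, the base where a region's signal is highest, is shown for 6 of the genes so that the bound positions can be seen. Each window reaches 50 bp to either side of the summit, read from the RefSeq copy of the dm6 assembly and written 5′ to 3′ along the gene's strand. A further wts window is added because it holds a searched motif. Capitals mark a searched motif or both copies of a repeat of at least 10 bases. The windows are Diap1 at chr3L:16046166-16046266 (minus strand, intron), Mer at chrX:19693363-19693463 (minus, intron near its start), ex at chr2L:431013-431113 (plus, upstream), ft at chr2L:4223020-4223120 (minus, upstream), wts at chr3R:30797500-30797600 and chr3R:30802306-30802406 (minus, introns) and mats at chr3R:22421757-22421857 (plus, intron).
Diap1: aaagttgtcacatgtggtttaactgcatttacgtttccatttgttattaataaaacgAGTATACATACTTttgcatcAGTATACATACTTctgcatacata
Mer: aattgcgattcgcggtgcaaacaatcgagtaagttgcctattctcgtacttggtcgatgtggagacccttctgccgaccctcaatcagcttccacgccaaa
ex: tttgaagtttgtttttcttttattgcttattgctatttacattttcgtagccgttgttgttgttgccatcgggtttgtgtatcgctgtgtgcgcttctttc
ft: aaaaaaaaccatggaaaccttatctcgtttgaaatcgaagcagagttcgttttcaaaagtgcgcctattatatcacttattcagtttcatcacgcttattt
wts (rank 2345): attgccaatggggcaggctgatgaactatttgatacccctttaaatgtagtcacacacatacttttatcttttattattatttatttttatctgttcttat
wts (rank 2589): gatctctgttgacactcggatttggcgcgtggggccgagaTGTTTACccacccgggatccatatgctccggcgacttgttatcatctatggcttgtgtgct
mats: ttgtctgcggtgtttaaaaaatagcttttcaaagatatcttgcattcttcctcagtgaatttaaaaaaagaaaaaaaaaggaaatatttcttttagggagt

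Peaks of the tagged protein lay at most of the pathway. Of the 10 genes, 8 had at least 1 optimal summit inside the gene or within 2 kb of it, and sav and sd had none. Over all protein-coding genes the share was 36.1%. Long genes are hit more often, and the 10 genes are long, with a median of 8214.5 bp against 2166 bp for all genes. Among genes of 2000 to 4999 bp the background was 37.7%, and hpo, mats, yki and Mer had a summit whereas sav did not. Among genes of 10000 to 19999 bp it was 57.2%, and all 3 of wts, ex and Diap1 had one. Among genes of 20000 to 49999 bp it was 63.6%, and ft had a summit and sd did not. A summit within 500 bp of an annotated isoform start, a promoter summit, was present at hpo, mats, yki, ex and Mer, which is 5 of 10 genes against 20.6% of all genes. This promoter share was not compared with genes of like length or number of starts.

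**Figure D1:**
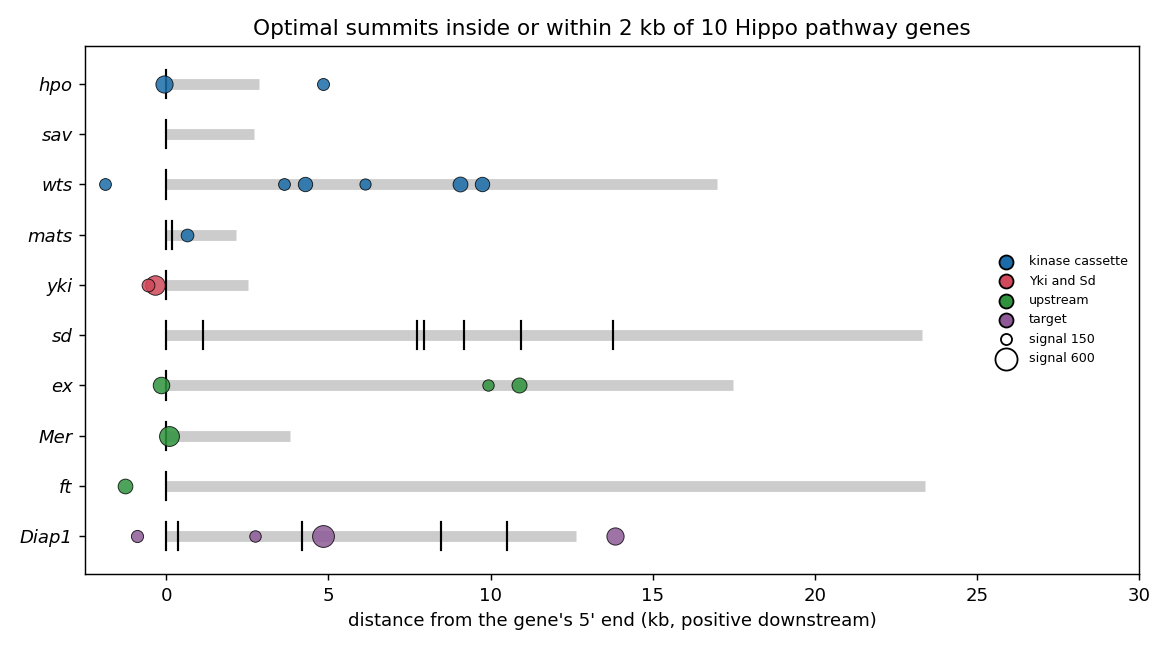
Optimal summits along each gene, with the distance from the gene's 5′ end in kb on the horizontal axis. Grey bars are gene bodies, vertical ticks are annotated isoform starts, circle area follows the signal in the optimal list, and colours give the role; wts carries 6 summits, and sav and sd none.

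The 8 genes had 20 optimal summits in all. Of these, 10 lay in introns, 1 in a 5′ untranslated exon, 7 upstream and 2 downstream, and none fell in coding sequence. The signal, which the authors' caller gave on the list's own scale, had a median of 254.5 over the 20 summits against 252 over all optimal peaks. Their median rank was 2575.5 against 2604.5. The pathway's peaks thus sat in the middle of the list, from rank 619 at Diap1 to rank 4958 at wts. For 13 of the summits the nearest protein-coding start was the gene's own, and for 7 it was a neighbour's. Neither these counts nor the places above were compared with all optimal summits, so they mark no trait of these genes.

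In the kinase cassette, hpo had a summit 58 bp upstream of its only annotated start. The gene lies at 2R, 19493996 to 19496856, on the minus strand, and the region spans 19496831 to 19497028 with a signal of 362.8 at rank 1466. It ranked 1921, 1811 and 1213 in replicates 1, 2 and 4, so every replicate placed it among its strongest 5208 regions. A weaker hpo summit lay beyond the gene's 3′ end, at rank 4218, and was 58 bp from the start of Rep, a Rab escort protein, and 183 bp from that of Oseg6. It ranked 5971, 3026 and 5421, so only replicate 2 held it among its strongest 5208.

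The Wts kinase gene carried the most summits of the 10. It lies at 3R, 30789625 to 30806619, on the minus strand, with 1 annotated start. Of its 6 summits 5 were inside the gene, between 3625 and 9734 bp downstream of the start, and none was at the start. Among 964 genes of that length class only 16 (1.66%) had 6 or more, and the class median was 1. The summits in the gene came as a pair 665 bp apart (ranks 2562 and 2345), a pair 638 bp apart (ranks 2589 and 4364), and 1 between the pairs at rank 4958, in a 5′ untranslated exon. The summit 9069 bp from the start ranked 2903, 2240 and 2320 in replicates 1, 2 and 4, and the one 4263 bp away ranked 2572, 1917 and 3193. Those were even across replicates. The summit at 9734 bp was not, with ranks 2423, 9292 and 1537. The summit at rank 4364 ranked 5921, 3306 and 4820, and the one at rank 4958 ranked 3571, 6186 and 8704. The sixth lay 1903 bp upstream, at rank 4347, and only 95 bp from the start of cindr, an adaptor protein of the cell cortex. It ranked 2845 in replicate 1 and 5817 in replicate 4 and was the only summit without a replicate 2 region within 100 bp. With matches allowed within 200 bp, all 20 summits were matched in every replicate, this one included.

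The partners of these kinases held little. The gene of Mats lies at 3R, 22421161 to 22423302, on the plus strand. Its summit was in an intron, 482 bp downstream of the nearer of 2 starts, at rank 3601 with a signal of 198.2. Its ranks were 5371, 4442 and 2904, so replicate 1 placed it just below the strongest 5208. At sav (3R, 23058609 to 23061304, minus strand) the strongest region of the authors' pooled list, a list of 30000 regions that begins with the optimal peaks, was 65 bp upstream of the start and 124 bp from that of Ublcp1. It ranked 9322 with a signal of 93.1, below the lowest optimal signal of 148.2. Its matches ranked 9240, 16169 and 10694, so no replicate came near the strongest 5208 there.

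The gene of the effector Yki (2R, 24065975 to 24068485, minus strand) had a pair of summits upstream. The stronger was 342 bp from the yki start, at rank 969 with a signal of 466.9, and ranked 1188, 1225 and 821 in the replicates. The other was 553 bp upstream, at rank 3538, and ranked 3698, 1743 and 4475. The summits were 211 bp apart and their regions overlapped by 43 bp. Both lay closer to an annotated start of Gpat4, a glycerol-3-phosphate acyltransferase gene, the stronger 70 bp downstream and the weaker 12 bp upstream of the nearest one. Which of these genes the summits belong to cannot be told from the lists.

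The gene of the DNA-binding partner Sd differed from that of Yki. It lies on X, 15804370 to 15827682, on the plus strand, and has 7 distinct annotated starts, the most of the 10 genes. No optimal summit lay within 2 kb, although the pooled list held 11 regions there. The strongest of these had a signal of 122.7 at rank 6626, 250 bp downstream of a start, in a 5′ untranslated exon. Its ranks were 16955, 4486 and 8116, so replicate 2 alone held it among its strongest 5208. Replicate 4 held another region at rank 4969, 987 bp upstream of the nearest sd start. The pooled region it matched lay closer to the start of a neighbour, PGRP-LE, which encodes a peptidoglycan recognition protein, at 418 bp.

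Of the upstream proteins, Mer had the most even peak. Mer, the fly homologue of the NF2 tumour suppressor, lies on X, 19689697 to 19693500, on the minus strand. Its only summit was 87 bp downstream of its single start, in an intron, at rank 894 with a signal of 483.2. The replicates ranked it 1094, 1054 and 889, with signals of 143.4, 122.9 and 203.3 on their own scales. The SD of its log10 rank was 0.048 (n = 3), the lowest of the 19 summits with a match in every replicate.

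At ex, which encodes a FERM-domain protein and is itself a known Yki target, the replicates were uneven at the summit near the start. The gene lies at 2L, 431227 to 448701, on the plus strand. The summit 164 bp upstream of its start had a signal of 336.6 at rank 1653, but ranked 1245, 707 and 4474 in replicates 1, 2 and 4, an SD of 0.41 in log10 rank (n = 3). Replicate 2 ranked it highest and replicate 4 lowest. The wts summit at rank 2562 was about as uneven, with an SD of 0.406 (n = 3). Another 2 summits lay in intronic sequence of ex, 947 bp apart. The one 10881 bp from the start ranked 2103, 1762 and 2833 and lay nearer to the start of crq, a scavenger receptor gene, at 9194 bp. The one at 9934 bp from the start ranked 3457, 8442 and 5138.

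The longest of the 10 genes, ft (2L, 4198404 to 4221796, minus strand), had no summit inside its 23393 bp. Its only summit was 1274 bp upstream of the start, at rank 2408 with a signal of 266.4. Ranks were 1755, 5809 and 2430, so replicate 2 placed it below its strongest 5208 and the other replicates well within.

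Diap1, which encodes a caspase inhibitor and is a classical Yki target, had the strongest peak of the 10 genes. The gene lies at 3L, 16038410 to 16051034, on the minus strand, with 5 distinct starts. The peak, at 16046017 to 16046341, had a signal of 584.6 at rank 619, in an intron 630 bp downstream of the nearest isoform start and 4818 bp from the gene's 5′ end. It ranked 1030, 599 and 518 in replicates 1, 2 and 4, with signals of 147.8, 163.2 and 274.6 on their own scales. A second Diap1 summit in an intron, 1467 bp upstream of that start, was weak, at rank 4665 with replicate ranks of 4046, 6528 and 4586. Of the other 2, the one beyond the 3′ end at rank 1455 ranked 2211, 1093 and 1452 and lay inside CG5895. The last, 907 bp upstream, was 18 bp from the start of Mbs, a myosin phosphatase subunit, at rank 4015. Among genes of this length class 6.33% had 4 or more summits. No optimal summit was within 500 bp of a Diap1 start, although the strongest 5208 regions of replicate 1 held one 124 bp upstream of a start (rank 3916) and those of replicate 2 one 224 bp downstream (rank 3960).

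Across replicates the summits were found at the same places but not always with the same strength. A region within 100 bp was present in all 3 replicate lists for 19 of 20 summits (95%), against 83.2% of all optimal summits. The median distance between the optimal summit and its match was 14 bp over 59 matches, and 16 bp over all optimal summits. The optimal list was derived from these replicates, so such matches are in part built in. Restricted to the 5208 strongest regions of each replicate, 10 of 20 summits (50%) were matched in all 3, against 53.4% of all optimal summits. These 10 belonged to hpo, wts, yki, ex, Mer and Diap1. By their own strongest 5208 regions, replicates 1, 2 and 4 placed a summit at 7, 8 and 9 of the 10 genes, a mean of 8 ± 1 (SD, n = 3), against 35.6%, 36.2% and 35.5% of all genes.

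**Figure D2:**
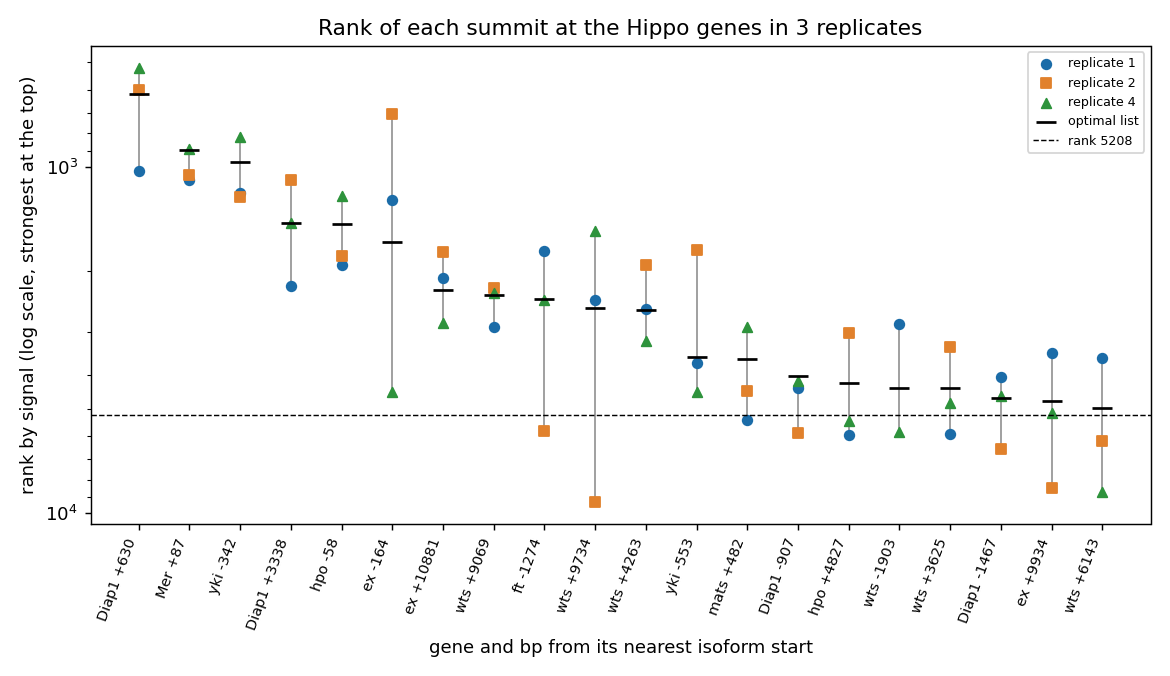
Rank by signal of each of the 20 summits in replicates 1, 2 and 4 (log scale, strongest at the top), in the order of the optimal list, labelled by gene and bp from the nearest isoform start. Vertical lines join the replicates and the dashed line is rank 5208; the ranks of Mer lie between 889 and 1094, whereas those of ex at -164 run from 707 to 4474.

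Ordered by mean log10 rank over the replicates, the Diap1 intron summit came first, with a geometric mean rank of 683.7 and an SD of 0.157 in log10 rank (n = 3). Mer followed at 1008.3 (SD 0.048) and the stronger yki summit at 1061.1 (SD 0.0967). Of the 18 steps between neighbours in this order, 3 exceeded the pooled SD of the pair, namely Diap1 to Mer, yki to the Diap1 summit at rank 1455, and hpo to the ex intron summit. At every step the ranges of the neighbours' replicate ranks overlapped. Taken replicate by replicate, the Diap1 intron summit ranked above Mer in 1, 2 and 4 (1030, 599 and 518 against 1094, 1054 and 889). No other neighbouring pair kept its order in every replicate, so the order of those adjacent summits was not resolved. The median SD was 0.137 for the 19 summits and 0.153 for all 4331 optimal summits matched in every replicate. Replicate 2 gave the best rank for 8 of the 19 (42.1%, against 32.3% of all), replicate 4 for 7 (36.8% against 37%) and replicate 1 for 4 (21.1% against 30.6%).

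The width of the regions went with their strength. Most optimal regions were exactly 456 bp wide and 31.9% were narrower. Among the 20, the 7 narrower ones included the strongest peaks of Diap1, Mer, yki, hpo and ex, with a median rank of 1455, and those of full width had a median rank of 4015. Over all optimal regions the medians were 932 and 3440.5. Of the 7, 5 lay within 500 bp of a protein-coding start, against 48.9% of all narrower regions. The peaks of wts, mats and ft were all of full width.

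**Figure D3:**
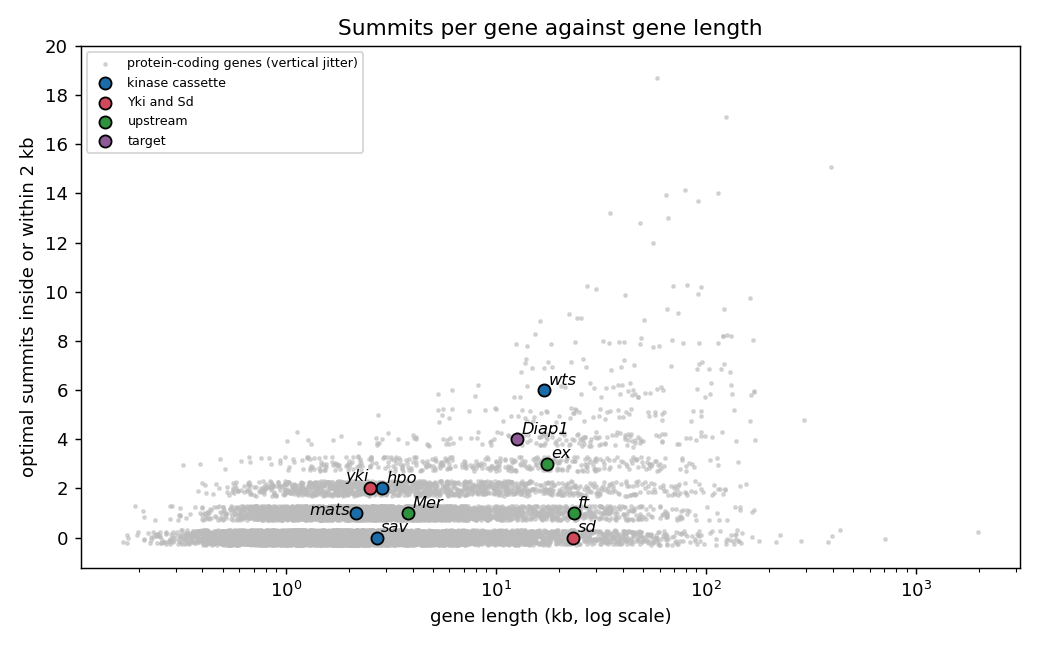
Number of optimal summits inside or within 2 kb of a gene against gene length in kb (log scale) for all protein-coding genes (grey, jittered vertically) and the 10 Hippo genes (coloured by role). Although shorter, wts with 6 summits and ex with 3 lie above sd and ft, which have 0 and 1.

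The searched motifs were about as frequent in the summit windows as in all optimal windows. Of 9 motifs searched on both strands, at least 1 was in 4 of the 20 windows (20%), against 26% of all 5208 optimal windows. The core of the TEAD site, GGAATG or CATTCC on the other strand, was in none of the 20, against 2.98% of all. The cAMP response element TGACGTCA, a bZIP site, was also in none (0.173% of all), and its core TGACG, which lies within it, in 1, the Diap1 window beside Mbs (6.72% of all). That window also held the Motif 1 core GGTCACAC of housekeeping promoters (1.09% of all). The FOXO site TGTTTAC was in the windows of the hpo start and of wts at rank 2589 shown above (4.3% of all), and the GAGA repeat GAGAG in 1 wts window (10.4% of all). TGACTCA, TATCGATA and CACGTG were in none, against 0.96%, 1.5% and 0.96%. Of 20 windows, 1 is 5%, and a window without these letters says nothing about the factors. G and C made up a median of 39.6% of the 20 windows, from 26.7% to 59.4%, against a median of 33.7% of all optimal windows.

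Some summit windows held a run of bases at more than 1 place, a feature looked for after the windows had been seen. In the Diap1 intron window above, the 13-base run in capitals occurs at 2 places, 20 bp apart from start to start. As long a repeat was in 23 of 5208 optimal windows (0.442%), where the median was 6 bases. The window of the stronger yki summit held an 18-base run at 2 places 81 bp apart, a length reached in 4 optimal windows (0.0768%). The wts window at rank 2562 had an 11-base repeat, and 1.82% of all windows one as long. The other 17 windows had repeats of 5 to 9 bases.

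Other genes of the pathway, on 3 lists chosen by name, had a summit about as often as genes near their median length. Of 50 such genes 30 had an optimal summit within 2 kb (60%), against 36.1% of all protein-coding genes, and 17 had a promoter summit (34%), against 20.6%. The promoter shares were not compared by gene length or number of starts. The 17 include the microRNA gene bantam, measured from the start of its hairpin. The median length of the 50 genes was 11692 bp, and among all genes of 10000 to 19999 bp the share was 57.2%, near the 60%. The 50 genes run from 81 to 132008 bp, so a single length class is only a rough background for them. Upstream regulators other than ex, Mer and ft had a summit at 15 of 26 genes (57.7%, median length 7381.5 bp), against 48.3% of all genes of 5000 to 9999 bp. The strongest were at app, a palmitoyltransferase of the Ft branch (rank 587, at its promoter), and the Ste20-family kinase msn (688). Next came the apical polarity gene crb (1416), ds, the cadherin ligand of Ft (1451), and Sik3, a salt-inducible kinase (1689). The Sik3 summit had no replicate 2 region within 100 bp. No optimal summit lay within 2 kb of fj, jub, Tao or Zyx.

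Nuclear partners of Yki and Sd had a summit at 8 of 12 genes (66.7%, median length 13354.5 bp), against 57.2% of all genes of 10000 to 19999 bp. These included the strongest peaks of the pathway: an intronic peak of Trl, the GAGA factor gene, ranked 6 in the optimal list and 6, 9 and 6 in the replicates, and the promoter peak of brm, a chromatin remodelling ATPase, ranked 112. The Yki cofactor gene mask (641), Hipk (856) and Mad (916) followed. The Sd cofactor genes vg and Tgi had no optimal summit within 2 kb.

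Targets of Yki other than Diap1 and ex had a summit at 7 of 12 genes (58.3%, median length 19554.5 bp). This is near the 57.2% of all genes of 10000 to 19999 bp and the 63.6% of those of 20000 to 49999 bp. CycE, a cyclin of S phase entry, ranked highest (401, with 411, 438 and 367 in replicates 1, 2 and 4), then dlp (953), vn (1040), the gene of the growth-promoting microRNA bantam (1097, and not a protein-coding gene) and dally (1752). The hairpin of bantam (mir-ban, 3L, 642208 to 642288, plus strand) is only 81 bp long, yet 5 optimal summits lay within 2 kb of it, 4 of them within 2 kb of its start. As many or more around an isoform start were found at 27 protein-coding genes (0.194%). The annotated bantam entry covers only the hairpin, so its start need not be a transcription start, and the 2 measures are unlike. The strongest was 1492 bp upstream and ranked 1097, 903 and 1016, and the one 756 bp downstream ranked 8292, 1392 and 9263, strong in replicate 2 only. The TEAD core was in 1 bantam window, at rank 4949, and in 2.98% of all optimal windows. At so low a share, its absence from the 20 windows above makes no contrast with bantam. Past the optimal list, the windows of the sav region at rank 9322 and of an sd region at rank 26413 held it too. The windows of 2 bantam summits, both upstream of the hairpin and on its strand, hold a searched motif (chr3L:640666-640766, GAGAG in capitals, and chr3L:640883-640983, CATTCC in capitals).
bantam (rank 1097): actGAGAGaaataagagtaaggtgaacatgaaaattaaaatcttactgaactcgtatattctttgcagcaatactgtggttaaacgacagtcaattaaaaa
bantam (rank 4949): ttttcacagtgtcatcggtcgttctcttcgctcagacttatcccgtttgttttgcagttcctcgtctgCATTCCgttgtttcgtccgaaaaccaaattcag

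**Figure D4:**
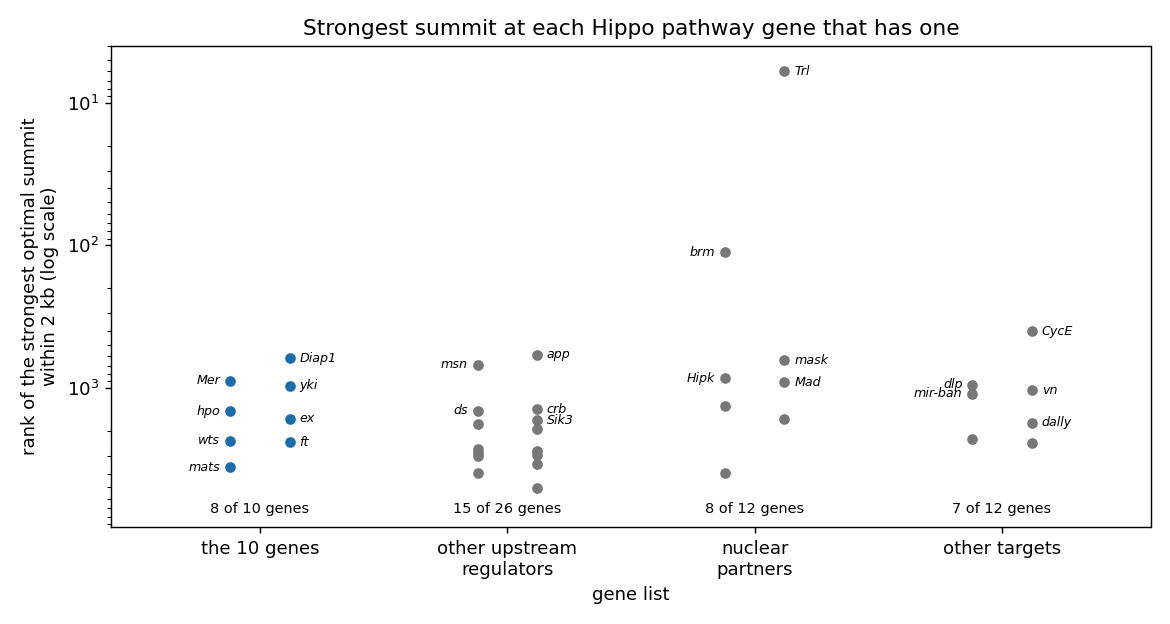
Rank in the optimal list (log scale, strongest at the top) of the strongest summit within 2 kb of each gene that has one, for the 10 genes and for 3 further lists of the pathway; the 5 strongest of each further list are named. The numbers give genes with a summit of all listed; the strongest summit among the 10 genes, at Diap1, ranks 619, and Trl and brm, at 6 and 112, lie far above it.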

How the data were processed

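The 3 biological replicates of tagged embryos form 1 group. The signal in column 7 of each deposited narrowPeak list was given by the authors' caller, with no stated normalization, and column 10 gives the summit. Per the file inventories, the optimal list was derived from the replicate lists and a pooled list. No label or header used here names the aligner, caller or rate cut-off.

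Lists of the dm6 build were used, and the dm3 lists were not. Regions were ranked by signal, since scales differ between lists. Genes, isoform starts and exons came from Ensembl release 115 (BDGP6, dm6 coordinates), and sequence from the RefSeq copy of the same assembly. Summits within 100 bp were matched. Replicate lists were also restricted to 5208 regions, the optimal list's length. Windows reaching 50 bp to either side of a summit were searched. Of 60 listed symbols, 2 were read through synonyms (d as dachs, riq as wap). Windows on arm 2R are not shown, and shown windows hold at most 30 untranslated bases.

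The genes, lists and motifs were chosen with earlier results of these data known. Named genes were the 10, neighbours of their summits, and up to 5 per further list by rank; genes without a summit that are named were picked after their values were seen. Alternatives varied the distance, promoter size, match, window and list length and left out each replicate. Counting was tested on simulated summits. Python 3.11.15, numpy 2.4.6 and matplotlib 3.10.9 were used. With 1 group, no test over samples was possible.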

Additional observations from a re-analysis of the deposited data

How the results depend on the processing

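Counts at the 10 genes depended on the distance allowed and on how strictly replicates had to match. Within genes only, 5 of the 10 had an optimal summit (12.5% of all genes) and 11 summits were counted; hpo, yki and ft, whose summits lie outside the gene, were lost. With 1000 and 5000 bp around the gene the count was 7 (30.1% of all genes) and 9 (49.4%). The 2604 strongest optimal peaks left 11 summits at 7 genes (23.4%). Peaks matched in the strongest 5208 of every replicate left 10 summits at 6 genes (24%), without mats and ft. With each replicate left out in turn from that match, 6 to 7 genes (25.5% to 29% of all), 10 to 15 summits and 4 to 5 genes with a promoter summit (13.4% to 15.8%) were counted; the count of summits was 12 without replicate 1, 15 without replicate 2 and 10 without replicate 4. Promoters of 250 bp gave 3 genes (16.1%). Summits matched in every replicate numbered 10 among the strongest 5208 (53.4% of all optimal summits). With 1 replicate left out they numbered 19 to 20 (86.6% to 89.7% of all optimal summits). Matching within 50 and 200 bp gave 14 (55.5% of all optimal summits) and 20 (93.6%). The mean number of genes reached per replicate was 1.67 with the strongest 1000 regions (10.8% of all genes), and 7.5 to 8.5 with 1 replicate left out. Windows reaching 25 and 100 bp to either side gave 2 and 9 of 20 with a motif, near the 13.1% and 47.3% of all optimal windows. The cause of these shifts, beyond fewer peaks or wider windows, was not tested. No paired analysis was possible because there is only 1 group. Depth per replicate is unknown.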

Other observations

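Just beyond 2 kb lay 3 further optimal summits, each closer to a neighbour. At sav, the only summit within 5 kb was 4462 bp past the 3′ end, at rank 776, and 65 bp from the start of p53, which encodes a DNA damage response factor. At yki it was 3531 bp downstream, at rank 1483, and 13 bp from the start of the ribosomal protein gene RpL39. At Diap1 it was 3376 bp upstream, at rank 3002, 2451 bp downstream of the Mbs start.

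The strongest 5208 regions of replicates 1, 2 and 4 held 18, 15 and 19 summits at the 10 genes, of which 1, 2 and 2 had no optimal summit within 100 bp. Replicates 1 and 2 each had such a region at Diap1 (ranks 3916 and 3960), replicates 2 and 4 at sd (4486 and 4969), and replicate 4 in ft (4458, in an intron 2805 bp from the start).

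Of 4172 genes whose strongest summit was matched in every replicate, those with log10 ranks nearest to the Diap1 intron summit were CG8188 and chas, which share a summit at rank 650 (distance 0.0719 over 3 replicates), and Pak3 (0.111).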
